A study of Mus musculus with 4 samples.

Results

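This account covers 10 genes of the heat-shock response in sorted mouse LSK cells, the lineage-negative bone marrow cells with SCA-1 and c-KIT on their surface that hold the blood stem and progenitor cells. The 10 genes were picked by symbol from the deposited table of 18598 genes, and all 10 were present and were tested. They are *Hspa1a*, *Hspa1b* and *Hspa8* of the HSP70 family, the HSP70 helpers *Dnajb1* and *Hsph1*, the HSP90 genes *Hsp90aa1* and *Hsp90ab1*, the chaperonin genes *Hspd1* and *Hspe1*, and *Hsf1*, which encodes the transcription factor of the response. The set was put together as cytosolic heat-shock genes, but HSP60 and HSP10, the products of *Hspd1* and *Hspe1*, work inside mitochondria, and HSF1 is a transcription factor and not a chaperone.

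RNA-seq was done on 2 control and 2 Bptf-cKO libraries, and LSK cells of 5 mice were pooled for each. Mice were C57BL/6, about 3 months old, and cells were sorted 10 days after cre induction. Mice of both genotypes carried the floxed *Bptf* allele on both chromosomes and received pIpC, an interferon inducer, and Bptf-cKO mice (genotype Bptf -/- in the labels) also carried *Mx1*-cre, a cre gene behind an interferon-responsive promoter. No RNA-seq library with *Mx1*-cre alone was analysed here, so the effect of cre and the effect of losing *Bptf* cannot be told apart. The question was how the loss of BPTF, a subunit of the NURF chromatin remodeler, changes transcript levels in these cells.

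Chaperones hold unfolded proteins and help them fold. HSP70 proteins bind short stretches of unfolded chain in a cycle of ATP hydrolysis that J-domain proteins start and exchange factors such as HSP110 end, and HSP90 proteins act later on selected clients such as kinases and receptors. HSF1 is held inactive in unstressed cells, binds heat-shock elements upon heat or other protein damage, and raises the transcription of inducible chaperone genes such as *Hspa1a* and *Hspa1b*, whereas *Hspa8* and *Hsp90ab1* are expressed in most cells without stress.

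The deposited values were gene counts divided by 1 size factor per library, called normalized counts here, and whole reads were recovered from them. Libraries held from 14091054 to 30134742 recovered reads, with both replicate 1 libraries deeper than both replicate 2 libraries, and the 10 genes took between 0.581% and 0.770% of the reads of a library. *Bptf*, the targeted gene, had 5520 and 5850 normalized counts in control and 3398 and 3320 in the Bptf-cKO libraries (limma log2 fold change -0.76, adjusted p = 0.0439). *Kit* and *Ly6a*, the genes of the sorting markers c-KIT and SCA-1, were detected in every library. *Kit* had 13634 to 17051 normalized counts, and *Ly6a* had 815 and 1369 in control replicates 1 and 2 and 726 and 1743 in Bptf-cKO, higher in both replicate 2 libraries like most of the 10 genes. Of the other 3 LSK markers examined, *Cd34* and *Flt3* were lower in both replicate 2 libraries (*Flt3* 9391 and 5832 in control, 5960 and 3214 in Bptf-cKO). Libraries with the same replicate number resembled each other in transcripts unrelated to genotype. *Xist*, the RNA of the inactive X chromosome, had 15675 and 11843 normalized counts in replicate 2 of control and Bptf-cKO and 0.775 and 3.25 in replicate 1. *Ddx3y*, a gene of the Y chromosome, had 456 and 769 in replicate 2 of control and Bptf-cKO and 1837 and 1835 in replicate 1. The Y-linked genes *Eif2s3y*, *Kdm5d* and *Uty* were also lower in both replicate 2 libraries. The replicate numbers thus also differed in X- and Y-linked transcripts. *Pou5f1*, a gene of pluripotent cells, had 582 and 738 normalized counts in replicate 2 and no read in replicate 1, and *Nanog* had 36.0 and 43.7 in replicate 2 and no read in replicate 1. These genes were looked up after their values had been seen, and a library without a read may hold up to 3 reads by counting error, or 2.33 normalized counts in control replicate 1 and 1.95 in Bptf-cKO replicate 1. Values are therefore given by replicate number.

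Levels were compared between genes as normalized counts per kilobase of annotated exon. *Hsp90ab1* was the highest, with 22634 to 27356 per kilobase over the 4 libraries, followed by *Hspa8* with 4924 to 7906. *Hsp90aa1* (2408 to 3714) and *Hspd1* (2031 to 2757) came next and overlapped, as did *Hspe1* (998 to 1407) and *Dnajb1* (738 to 1328). *Hsph1* had 278 to 494 and *Hsf1* 235 to 246 per kilobase. *Hspa1b* (7.88 to 214) and *Hspa1a* (0.438 to 90.6) were the lowest and spread the most. *Hsp90ab1* and *Hspa8*, the constitutive genes, therefore led this order, and the stress-inducible HSP70 genes stood last in every library. *Hspa1a* and *Hspa1b* share much of their sequence, and reads from it may be uncounted. In control replicate 2 *Hspa1b*, at 214, was not far below *Hsf1*, so that order is uncertain. The exon length of a gene covers all its annotated transcripts, 16 for *Hsf1* and 11 for *Hsph1*.

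**Figure D1:**
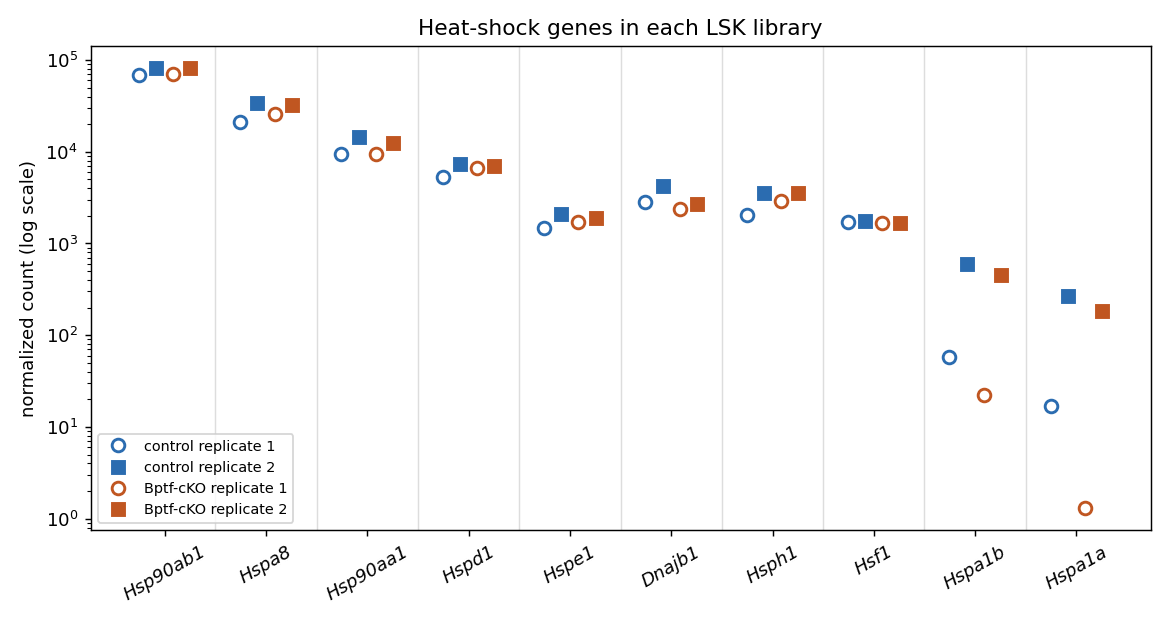
Normalized count of each heat-shock gene (log axis) in the 2 control (blue) and 2 Bptf-cKO (orange) libraries, replicate 1 as open circles and replicate 2 as filled squares, in the order of the control level per kilobase. *Hspa1a* runs from 1.30 to 269 normalized counts with both replicate 2 libraries far above both replicate 1 libraries, whereas *Hsf1* lies between 1665 and 1749 in all 4 libraries.

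*Hspa1a* and *Hspa1b* encode the stress-inducible cytosolic HSP70 and lie as intronless neighbours on the minus strand of chromosome 17, at 34969190 to 34972156 and 34956436 to 34959238 of GRCm38 (GENCODE vM21). Of the 50-base stretches of the *Hspa1a* transcript 58.8% also occur in the *Hspa1b* transcript, and 62.3% the other way. Whether shared reads were counted, and how they were divided between the genes, is therefore uncertain. An exon of *Gm20481*, which the table does not list, overlaps *Hspa1a* by 377 bases on the opposite strand, and strand-specific counting is not stated in the sources used here. The 250 bases before their RefSeq start sites (GRCm38.p6, minus strand, chr17:34972157-34972406 and chr17:34959239-34959488) differ at 3 positions and are printed because these genes varied most. Capitals mark GAANNTTC, a pair of adjoining units of the heat-shock element, found 104 bases before the start site of each gene.

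Hspa1a: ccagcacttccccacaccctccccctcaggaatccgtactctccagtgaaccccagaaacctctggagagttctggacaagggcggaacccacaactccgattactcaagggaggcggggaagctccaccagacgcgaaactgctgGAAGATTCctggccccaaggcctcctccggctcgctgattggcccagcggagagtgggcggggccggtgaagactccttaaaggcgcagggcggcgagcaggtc
Hspa1b: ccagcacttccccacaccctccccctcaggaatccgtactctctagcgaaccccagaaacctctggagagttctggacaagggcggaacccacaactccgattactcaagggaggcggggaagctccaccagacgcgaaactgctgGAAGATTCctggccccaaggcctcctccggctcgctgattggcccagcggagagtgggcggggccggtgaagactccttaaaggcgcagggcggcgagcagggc

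In control, *Hspa1a* had 17.1 normalized counts in replicate 1 and 269 in replicate 2, and in Bptf-cKO it had 1.30 in replicate 1 and 185 in replicate 2. Both replicate 2 libraries were high and both replicate 1 libraries low, and the genotypes overlapped. In Bptf-cKO the replicate 2 library was 142-fold above the replicate 1 library (95% counting interval 38.6 to 1190, from 131 and 2 reads), and in control 15.8-fold (10.1 to 25.7, from 194 and 22 reads). *Hspa1b* had 57.4 and 599 normalized counts in control and 22.1 and 457 in Bptf-cKO, a replicate difference of 10.4-fold (8.14 to 13.5) in control and 20.7-fold (14.5 to 30.4) in Bptf-cKO. These exact intervals cover counting error only and compare libraries, not conditions. Summed, the genes had 74.4 and 868 normalized counts in control and 23.4 and 642 in Bptf-cKO. The sum avoids the question of how reads were divided between the genes, but not that of shared reads left uncounted. Within each replicate number the Bptf-cKO library was the lower one: the Bptf-cKO to control ratio of *Hspa1b* was 0.385 (0.249 to 0.586) in replicate 1 and 0.764 (0.659 to 0.884) in replicate 2, and that of *Hspa1a* was 0.0762 (0.00869 to 0.310) and 0.687 (0.547 to 0.862). Over the 4 libraries the difference between genotypes was smaller than the spread between replicates. The limma log2 fold change of Bptf-cKO against control, on genotype only, was -1.76 for *Hspa1a* (95% interval -7.60 to 4.09, adjusted p = 0.786). For *Hspa1b* it was -0.86 (-5.14 to 3.42, adjusted p = 0.869). With the replicate number in the fit, the adjusted p of *Hspa1a* was 0.0463 by limma and 0.124 by edgeR. That of *Hspa1b* was 0.0480 by limma and 0.057 by edgeR. Without control replicate 2 these log2 fold changes were 0.20 and 0.82, and without Bptf-cKO replicate 1 they were 1.41 and 1.29, but either fit sets unequal replicate numbers against each other, so the replicate difference enters these values. On the recovered reads of all libraries the estimates were smaller, -0.65 for *Hspa1a* and -0.47 for *Hspa1b* by edgeR and -0.62 and -0.45 by DESeq2. For the summed genes limma gave -1.03.

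*Hspa8* (chromosome 9, 40800984 to 40810087) encodes HSC70, the constitutive HSP70. It had 21179 and 34003 normalized counts in control replicates 1 and 2 and 25714 and 32436 in Bptf-cKO. The replicate 2 libraries were again the higher ones, and the control libraries lay outside the Bptf-cKO libraries on both sides. Its log2 fold change was 0.11 (95% interval -0.53 to 0.74, limma adjusted p = 0.897), with 0.28 in replicate 1 and -0.068 in replicate 2.

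The HSP70 helpers differed from each other. *Dnajb1* (chromosome 8, 83608193 to 83612653) encodes HSP40, a J-domain protein that starts the ATP hydrolysis of HSP70, and had 2855 and 4256 normalized counts in control and 2364 and 2692 in Bptf-cKO. Both Bptf-cKO libraries were below both control libraries (as for 23.8% of all tested genes), and the log2 difference was -0.27 between the replicate 1 libraries and -0.66 between the replicate 2 libraries. *Dnajb1* had the smallest p of the 10 genes, with a log2 fold change of -0.47 (95% interval -0.99 to 0.05). Its adjusted p was 0.364 by limma on genotype only, which did not pass the threshold of 0.05. With the replicate number in the fit it was 0.0111 by limma and 0.0134 by edgeR. *Hsph1* (chromosome 5, 149614287 to 149636376) encodes HSP105, an HSP110 protein that exchanges the nucleotide of HSP70, and had 2023 and 3591 normalized counts in control and 2886 and 3520 in Bptf-cKO. Its replicate 2 libraries were the higher ones, and its log2 fold change was 0.24 (95% interval -0.47 to 0.96, limma adjusted p = 0.750), with 0.51 in replicate 1 and -0.029 in replicate 2.

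HSP90 is encoded by *Hsp90aa1* (chromosome 12, 110690605 to 110702728), the more stress-responsive gene, and *Hsp90ab1* (chromosome 17, 45567775 to 45573271), the constitutive one. *Hsp90aa1* had 9472 and 14598 normalized counts in control and 9467 and 12394 in Bptf-cKO. The replicate 1 libraries of the genotypes were nearly equal and the replicate 2 libraries were 1.54-fold higher in control and 1.31-fold higher in Bptf-cKO. *Hsp90ab1* had 67879 and 82042 normalized counts in control and 70191 and 81795 in Bptf-cKO, 1.21-fold and 1.17-fold higher in replicate 2. Their log2 fold changes between genotypes were -0.12 (95% interval -0.73 to 0.49, limma adjusted p = 0.875) and 0.022 (-0.36 to 0.40, adjusted p = 0.969).

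*Hspd1* and *Hspe1* encode HSP60 and HSP10, which form the folding chamber of the mitochondrial matrix, and start from a shared region of chromosome 1 in opposite directions (*Hspd1* 55077835 to 55088243, minus strand, and *Hspe1* 55088132 to 55091307, plus strand). Their annotated exons overlap by 112 bases on opposite strands, and without a stated strand, reads there cannot be assigned with certainty. The shared region holds 4 heat-shock element units in a row, printed because the same letters serve both genes (GRCm38.p6, chr1:55088055-55088080, capitals mark the units, 89 to 72 bases before the RefSeq start site of *Hspe1* and 144 to 127 before the second start site of *Hspd1*).

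Hspe1, plus strand: tccgTTCTAGAACCTTCCGGAAggcc
Hspd1, minus strand: ggccTTCCGGAAGGTTCTAGAAcgga

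*Hspd1* had 5367 and 7283 normalized counts in control and 6677 and 7014 in Bptf-cKO, and *Hspe1* had 1471 and 2073 in control and 1714 and 1881 in Bptf-cKO. In each genotype both genes were higher in replicate 2, and the Bptf-cKO libraries lay between the control libraries. The log2 fold change was 0.13 for *Hspd1* (95% interval -0.28 to 0.54, limma adjusted p = 0.766) and 0.040 for *Hspe1* (-0.42 to 0.50, adjusted p = 0.951). In replicate 1 the differences between genotypes were 0.32 and 0.22 on the log2 scale, and in replicate 2 they were -0.054 and -0.14.

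The RefSeq promoter table, with windows of 250 bases before to 50 after each start site, held windows for 6 of the 10 genes, those of *Hspa1a*, *Hspa1b*, *Dnajb1*, *Hsph1*, *Hspd1* and *Hspe1*. The motifs GAANNTTC and TTCNNGAA, each its own reverse complement, were searched on both strands, and 15.1% of all 32851 windows held at least 1 of them. A run of 3 units, in which both motifs overlap by the unit they share, was in 0.603% of all windows, and among the 6 genes in windows of *Hsph1*, *Hspd1* and *Hspe1*. In *Hsph1* (chr5:149636287-149636304, minus strand) the run lies 37 to 49 bases after the first start site, within cagaTTCTGGAAAGTTCt. The *Dnajb1* windows and the window of the first *Hspd1* start site held neither motif.

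*Hsf1* (chromosome 15, 76477422 to 76501913) had 1704 and 1749 normalized counts in control and 1668 and 1665 in Bptf-cKO. It was the steadiest of the 10 genes, with a ratio of replicate 2 to replicate 1 of 1.03 in control and 0.998 in Bptf-cKO. Both Bptf-cKO libraries were below both control libraries, but the log2 fold change was -0.051 (95% interval -0.29 to 0.19, limma adjusted p = 0.857). With the libraries recentred on their medians, which moves all differences between genotypes by 0.052, it was 0.00051, so no direction is given. RNA levels do not report on the activity of the HSF1 protein.

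Set against each other by replicate number, 8 of the 10 genes were higher in both replicate 2 libraries than in both replicate 1 libraries, and none was lower in both, whereas 19.2% of the 14858 tested genes were higher in both and 19.2% lower in both. The exceptions were *Hsf1* and *Dnajb1*, whose Bptf-cKO replicate 2 library had fewer normalized counts than control replicate 1. The median difference of the 10 genes was 0.60 in control and 0.25 in Bptf-cKO on the log2 scale, against 0.0025 and -0.0045 over all tested genes. Outside *Hspa1a* and *Hspa1b* the differences were modest, from 0.037 to 0.83 in control and from -0.003 to 0.39 in Bptf-cKO. Ordered from the most positive mean difference of both genotypes, *Hspa1a* ranked 18 and *Hspa1b* 41 among the 14858 tested genes, and the next, *Hsph1*, ranked 1085. The replicate 2 against replicate 1 difference was larger in control than in Bptf-cKO for every gene except *Hspa1a* and *Hspa1b*. Since *Hspd1* and *Hspe1* share a promoter region, and *Hspa1a* and *Hspa1b* share reads, the 10 genes are not independent, and the difference between replicate numbers was not tested.

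**Figure D2:**
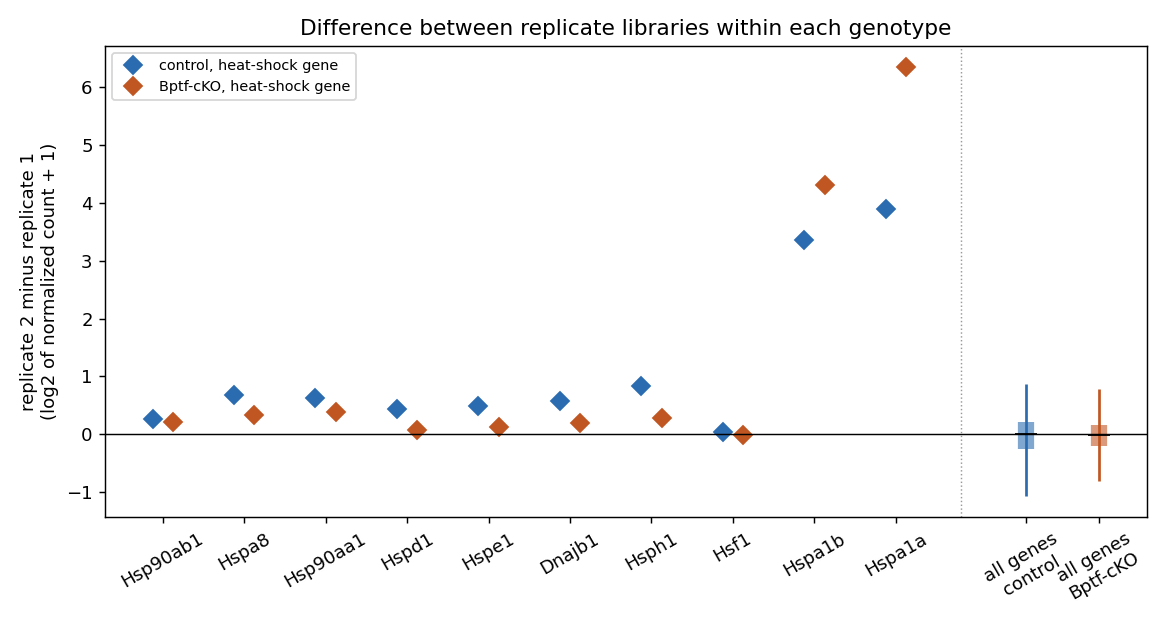
Replicate 2 minus replicate 1 (log2 of normalized count + 1) within control (blue) and Bptf-cKO (orange) for each heat-shock gene as diamonds, and for all 14858 tested genes at the right as the median (black line), the 25th to 75th percentile (thick bar) and the 5th to 95th percentile (thin line). *Hspa1a* and *Hspa1b* stand at 3.36 to 6.34, and of the other 8 genes 7 are above 0 in both genotypes and *Hsf1* is at 0.037 and -0.003.

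Between genotypes, limma fitted on genotype only called 0 of the 10 genes at an adjusted p under 0.05. Of all tested genes it called 0.370% higher in Bptf-cKO and 0.370% lower. At an unadjusted p under 0.05 limma and edgeR each found 0 of the 10 and DESeq2 found 1, where 15.7% of all tested genes passed in limma, 15.7% in edgeR and 14.1% in DESeq2, and after adjustment edgeR called 0 (0.33% of all tested genes higher and 0.303% lower) and DESeq2 called 0 (2.18% higher and 3.36% lower). With the replicate number in the fit, limma called 3 of the 10 lower, where it called 8.36% of all tested genes lower (see the last section). None of the 10 had both Bptf-cKO libraries above both control libraries, against 23.2% of all tested genes, and 2 had both below, *Dnajb1* and *Hsf1*, against 23.8%. The intervals bound the difference of *Hsf1*, *Hsp90ab1*, *Hspe1* and *Hspd1* to at most 0.54 in size on the log2 scale, and are several log2 units wide for *Hspa1a* and *Hspa1b*. The median log2 fold change of the 10 genes was -0.015, against 0.001 over all tested genes. All 10 genes were lower in Bptf-cKO in the replicate 2 libraries, from -0.66 for *Dnajb1* to -0.0043 for *Hsp90ab1*, where 49.5% of all tested genes were lower. Some of these differences, such as those of *Hsp90ab1* and *Hsph1* (-0.029), were smaller than the 0.052 by which recentring moved the genotype difference over all libraries. The count of 10 may therefore depend on the scaling, and it was not repeated under another one. The median of the replicate 2 differences over all tested genes was 0.005. In the replicate 1 libraries 5 were lower and 5 higher, where 50.2% of all tested genes were lower. The signs of the 2 comparisons thus matched for 5 of the 10 genes (*Hspa1a*, *Hspa1b*, *Hsp90aa1*, *Dnajb1* and *Hsf1*), against 68.9% of all tested genes. In replicate 1 the differences of *Hsp90aa1* (-0.0007) and *Hsf1* (-0.031) were too small to give a direction. For 1 gene and 2 libraries a genotype, the smallest p that exact permutation allows (two-sided) is 0.333.

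**Figure D3:**
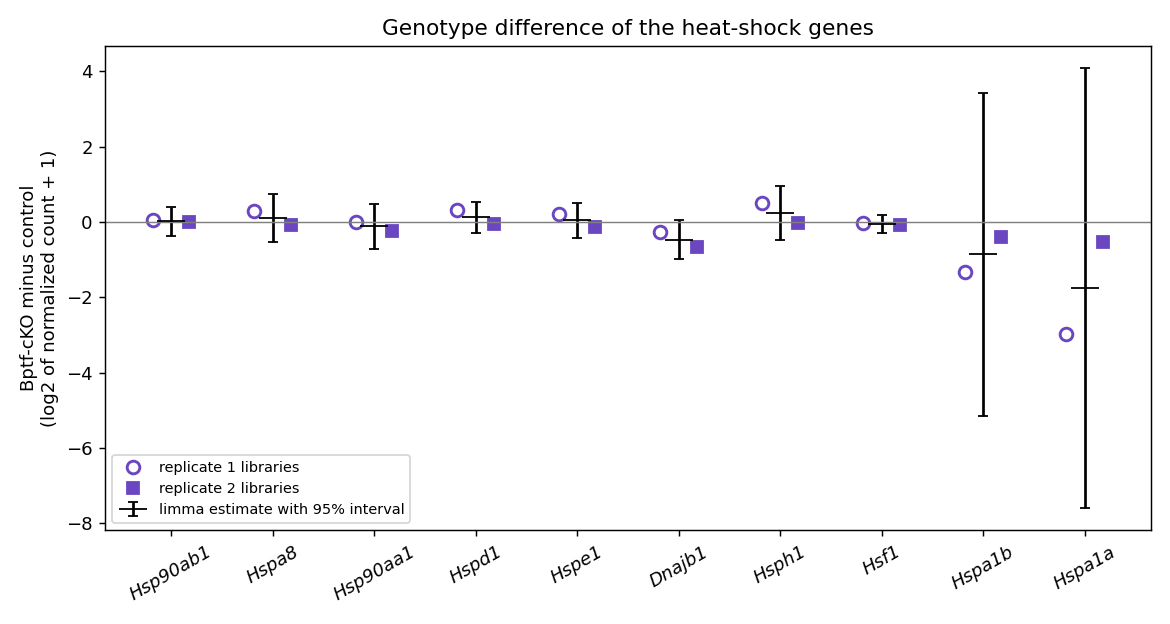
Bptf-cKO minus control (log2 of normalized count + 1) for each heat-shock gene between the replicate 1 libraries (open circles) and between the replicate 2 libraries (filled squares), with the limma estimate over all 4 libraries and its 95% interval (black). Every interval includes 0, and those of *Hspa1a* (-7.60 to 4.09) and *Hspa1b* (-5.14 to 3.42) are the widest.

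Around these genes, a list of 67 chaperone and cochaperone genes was examined, of which 63 were in the table and 60 were tested. Limma called 0 of the 60, with 7 at an unadjusted p under 0.05, and edgeR likewise called 0 with 7, a smaller share than the 15.7% of all tested genes in either tool. DESeq2 called 3 of them, *Hspa9* and *Clpb* higher and *Dnajb4* lower (adjusted p = 1.38e-06, 0.0466 and 0.0108), where it called 2.18% of all genes higher and 3.36% lower. The median log2 fold change of the 60 genes was 0.049, with 36 positive and 24 negative.

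The mitochondrial chaperones had the highest values of the groups with a median log2 fold change of 0.40. Of the 7 tested, 6 were positive in both replicate numbers, although none passed in limma on genotype only. Over all 14858 tested genes, 7370 were positive in replicate 1 and 7504 in replicate 2. *Hspa9*, the mitochondrial HSP70, had 9632 and 11278 normalized counts in control and 17916 and 18148 in Bptf-cKO, 0.79 higher on the log2 scale (standard error 0.11, adjusted p = 0.0618 by limma). *Clpb*, a mitochondrial disaggregase, had 972 and 1387 in control and 1751 and 2049 in Bptf-cKO, 0.71 higher on the log2 scale (adjusted p = 0.200 by limma). For both genes the Bptf-cKO libraries lay above the control libraries. *Dnaja3*, a mitochondrial J-domain gene, and the nucleotide exchange factors *Grpel1* and *Grpel2* had log2 fold changes of 0.51, 0.40 and 0.28 (limma adjusted p = 0.220, 0.271 and 0.350). The other 2 of the 7 were *Trap1*, the mitochondrial HSP90, with 0.10, and the protease subunit *Clpx*, with -0.024. *Hspd1* and *Hspe1*, of the same compartment, had 0.13 and 0.040, and their difference from *Hspa9* was not tested.

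Of the 10 tested J-domain cochaperones 5 were positive and 5 negative. *Dnajb4*, a close relative of *Dnajb1*, had 754 and 1109 normalized counts in control and 469 and 521 in Bptf-cKO, -0.89 on the log2 scale (adjusted p = 0.152 by limma). Both Bptf-cKO libraries were below both control libraries for *Dnajb4*, *Dnajb5* (-0.38) and *Dnajb2* (-0.16), or 3 of the 10 against 23.8% of all tested genes, and above them for 4 of the 10 against 23.2%. *Dnajc2*, which works at the ribosome, was at 0.26 (adjusted p = 0.339 by limma). Among the other cytosolic HSP70 and HSP110 genes, 3 of 6 were positive, and *Hspa12b*, a distant HSP70 relative, had -0.59 (limma adjusted p = 0.352). Of the 14 HSP90 cochaperones 10 were positive, with *Chordc1* at 0.36 and the kinase cochaperone *Cdc37* at 0.24 (limma adjusted p = 0.248 and 0.286). Over all 14858 tested genes 7458 were positive. The 8 subunits of the CCT chaperonin, which folds actin and tubulin, had a median of 0.12 with 7 positive, the 9 exchange factors and HSP70 regulators a median of -0.032 with 4 positive, and the 3 tested genes of the HSF family and its binding protein a median of -0.15 with 0 positive.

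**Figure D4:**
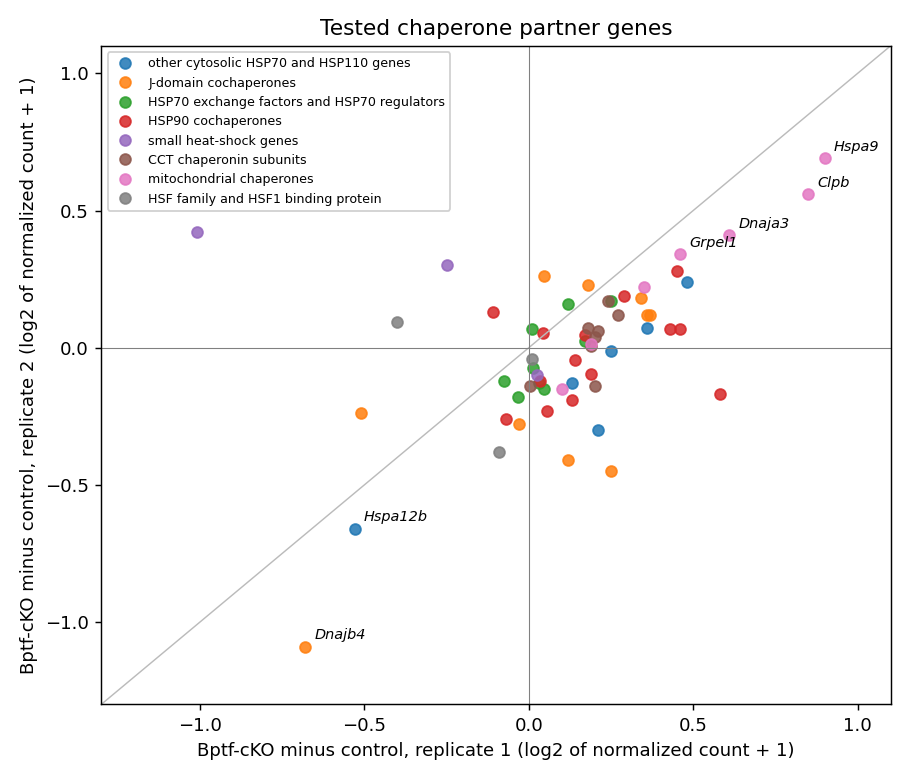
Bptf-cKO minus control (log2 of normalized count + 1) between the replicate 1 libraries (horizontal axis) and between the replicate 2 libraries (vertical axis) for the 60 tested chaperone and cochaperone genes, coloured by group, with a grey line of equality. *Hspa9* (0.90 and 0.69) and *Clpb* (0.85 and 0.56) lie at the upper right and *Dnajb4* (-0.68 and -1.09) at the lower left, and most genes lie near 0.

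By replicate number, 18 of the 60 tested partner genes were higher in both replicate 2 libraries, among them 6 of 8 CCT subunits, 5 of 14 HSP90 cochaperones and 3 of 3 small heat-shock genes, and 4 of the 60 were lower in both. Over all tested genes these shares were 19.2% each. Of the small heat-shock genes *Hspb8* had 10 to 17 reads a library, so counting error may set its order. *Hspb1*, which encodes the inducible small heat-shock protein HSP27, came closest to *Hspa1a* in its pattern, with 2.33 and 16.6 normalized counts in control replicates 1 and 2 and 0.650 and 22.6 in Bptf-cKO, from 1 to 16 reads a library. *Bag3*, an HSP70 exchange factor induced by HSF1, had 430 and 553 normalized counts in control and 466 and 618 in Bptf-cKO. Both were singled out after their values had been seen. The genes for the ER counterparts of HSP70, HSP90 and HSP110, *Hspa5*, *Hsp90b1* and *Hyou1*, were each higher in replicate 2 within each genotype. Of all 14858 tested genes 7474 were in control and 7323 in Bptf-cKO. Only *Hspa5* (13472 and 30574 in control, 16481 and 20291 in Bptf-cKO) had both replicate 2 libraries above both replicate 1 libraries. For *Hyou1* the log2 difference was 0.067 in control and 0.18 in Bptf-cKO. None of the 3 passed between genotypes in limma, where the log2 fold change of *Hyou1* was 0.54 (adjusted p = 0.0984), that of *Hsp90b1* 0.24 (adjusted p = 0.422) and that of *Hspa5* -0.15 (adjusted p = 0.906).

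Other transcripts were compared over the same libraries. The immediate-early list of 21 genes, such as *Fos*, *Jun* and *Egr1*, which respond within minutes to stimulation, summed to 90256 and 218205 normalized counts in control replicates 1 and 2 and to 34301 and 38722 in Bptf-cKO. Of its 20 tested genes 18 were higher in replicate 2 in control and 14 in Bptf-cKO, against 7474 and 7323 of all 14858 tested genes. In both replicate 2 libraries 3 of the 20 were higher than in both replicate 1 libraries, against 19.2% of all tested genes. The immediate-early sum was thus highest in control replicate 2, as were *Hspa1a* and *Hspa1b*, but the sum in Bptf-cKO replicate 2 was below that of control replicate 1, which was not so for *Hspa1a* and *Hspa1b*. Of the 10 neutrophil and monocyte markers 8 were lower in both replicate 2 libraries, against 19.2% of all tested genes. They summed to 69204 and 13599 in control and 46171 and 38241 in Bptf-cKO. The 7 erythroid markers were lower in sum in both Bptf-cKO libraries (1005 and 1021 in control, 224 and 302 in Bptf-cKO). All 7 had negative log2 fold changes with a median of -2.0, where 7400 of all 14858 tested genes were negative, and *Epor* passed in limma (-1.96, adjusted p = 0.0443). Of the 20 tested immediate-early genes 17 had negative log2 fold changes and 15 had both Bptf-cKO libraries below both control libraries, against 23.8% of all tested genes, and *Zfp36* passed in limma (-1.99, adjusted p = 0.0368). Over all tested genes limma called 0.37% lower. The 6 B cell markers summed to 6683 to 12337 over the libraries and the 6 megakaryocyte markers to 4850 to 6692. Of the T and NK cell markers *Cd3e*, *Cd3g* and *Cd8a* were not listed in the table, and the other 4 summed to 1325 to 2375. Both Bptf-cKO libraries were above both control libraries for *Nkg7* (limma log2 fold change 0.55) and *Klrb1c* (1.55) and below them for *Cd4* (-0.73). Limma called none of the 3 tested. The part of *Xist*, Y-linked, *Pou5f1* or *Nanog* transcripts, of depth, of immediate-early genes or of these other cells in the levels of the heat-shock genes was not tested. In sorted cell populations, fewer cells of a type and less RNA per cell cannot be told apart.

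**Figure D5:**
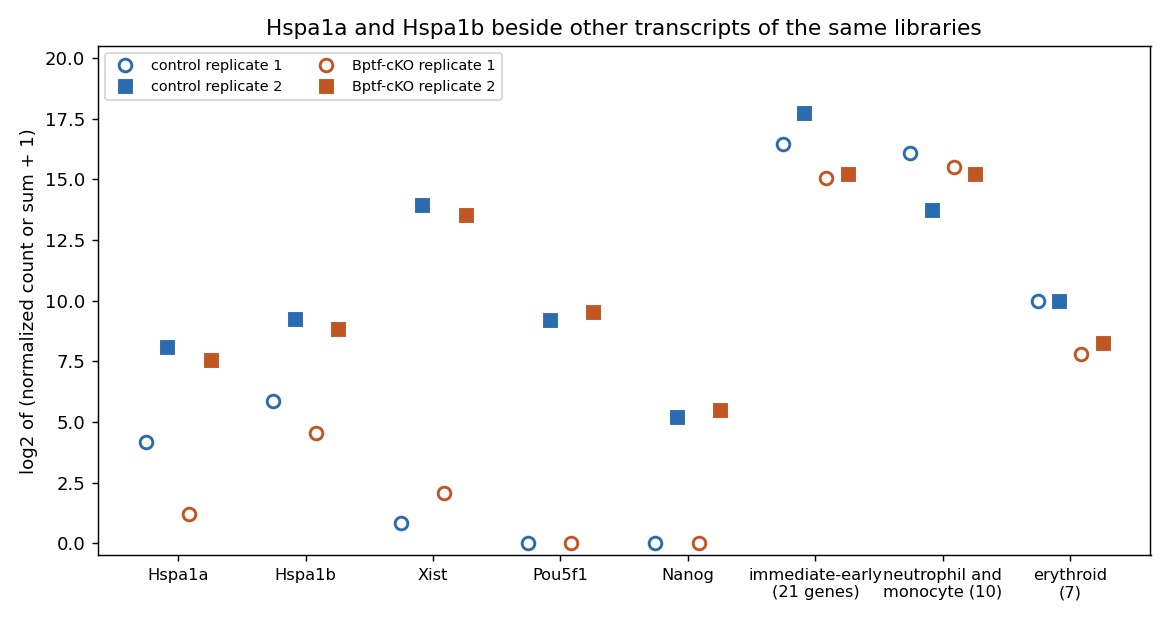
Log2 of the normalized count + 1 of *Hspa1a*, *Hspa1b*, *Xist*, *Pou5f1* and *Nanog* and of the summed normalized counts + 1 of the immediate-early, neutrophil and monocyte, and erythroid lists in each of the 4 libraries (blue control, orange Bptf-cKO, open circles replicate 1, filled squares replicate 2). The 5 single genes stand higher in both replicate 2 libraries, the neutrophil and monocyte sum is lowest in control replicate 2 (13599), and the erythroid sum is higher in both control libraries (1005 and 1021) than in both Bptf-cKO libraries (224 and 302).

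The genes most like the 10 were sought among 10805 other genes whose mean normalized count was 100 or more, by the distance between their 4 centred log2 values and the median profile of the 10 genes, which was -0.28 and 0.29 in control replicates 1 and 2 and -0.11 and 0.13 in Bptf-cKO. The nearest were *Kntc1* (distance 0.0324), a kinetochore gene, *Trip13* (0.0411), a gene of the spindle checkpoint, *Poc5* (0.0462), a centriole gene, *Alg14* (0.0640), a gene of N-glycan synthesis, and *Tyms* (0.0677), which encodes thymidylate synthase. *Kntc1*, the nearest, had 1818 and 2689 normalized counts in control and 2089 and 2435 in Bptf-cKO. With 4 libraries such likeness is a description of these libraries only.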

How the data were processed

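The deposited signal of a gene in a library was its read count after division by that library's size factor, as the authors computed it. The submitters' processing notes name HISAT2, featureCounts and DESeq2 with the builds GRCm38 and mm10. The authors also deposited a mean, a log2 fold change with its standard error, a test score and a p-value with its adjusted value, none of which was used. Dividing each column by its lowest value above 0 gave whole reads for 100% of values (tolerance 0.01), from 14091054 to 30134742 a library. Counting error matters mainly for *Hspa1a*, *Hspa1b* and *Hspb1*, and for other genes with few reads such as *Hspb8*.

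The 14858 of 18598 genes whose mean normalized count reached 10 were compared as log2(normalized count + 1), which understates the change of low genes, with limma 3.58.1 in R 4.3.3 (mean-variance trend, genotype only, two-sided, Benjamini-Hochberg over all tested genes, threshold 0.05). Alternatives were edgeR 4.0.16 (quasi-likelihood, TMM) and DESeq2 1.42.0 on the recovered reads, other pseudocounts, filters and scalings, a replicate block, each library left out, and *Hspa1a* and *Hspa1b* summed. Scripts were tested on simulated data. Python 3.11.15 with pandas 2.3.3 and scipy 1.17.1 made the summaries. Intervals of read ratios are exact (conditional binomial). Sample titles gave the groups and replicate numbers. Each replicate is a pool of 5 mice, and p-values measure the spread between these pools.

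The 10 genes and the lists were chosen with earlier results of these data known. Named were the 10 genes, *Bptf*, the ER counterparts, the 10 partner genes with the smallest limma p and a mean of at least 100, and the 5 genes nearest in profile. Other genes were named after their values were seen.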

Additional observations from a re-analysis of the deposited data

How the results depend on the processing

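The main limit is 2 libraries a genotype. None of the 10 genes was called under pseudocounts of 0.5 and 10, no filter, a mean of at least 50, recentring, the summed HSP70 pair, edgeR and DESeq2. Counts of 0 without the trend or without a Bptf-cKO library say little, since these fits called at most 2 of all genes. Members were called with the replicate block, under which limma called 3 of the 10 lower (*Hspa1a*, *Hspa1b* and *Dnajb1*, adjusted p = 0.0463, 0.0480 and 0.0111, with log2 fold changes of -1.76, -0.86 and -0.47, where 8.36% of all tested genes were called lower) and edgeR called 1 lower (*Dnajb1*, -0.46, adjusted p = 0.0134, where 8.27% were called lower). With the block, limma and edgeR each called 5 of 60 partner genes higher and 2 lower, where 6.03% and 6.00% of all tested genes were called higher. In both tools the higher ones were *Hspa9*, *Clpb*, *Dnaja3*, *Grpel1* and *Chordc1* and the lower ones *Dnajb4* and *Hspa12b*. Libraries of the same replicate number deviated together (correlation 0.452 over 14858 genes and 0.638 over the 10815 with a mean of at least 100). They also shared the split in *Xist*, Y-linked, *Pou5f1* and *Nanog* transcripts. There are only 2 pairs and no label states what the number marks, so the block stays an alternative.

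DESeq2 called 2 partner genes higher and 1 lower. Over all genes, 55 were called higher and 55 lower by limma, 896 and 1242 with the replicate block, 891 and 1229 by edgeR with it, 318 and 490 by DESeq2, and 2 and 0 without the trend. Leaving out single libraries gave 1 to 76 genes higher and 0 to 41 lower, with 1 higher and 0 lower without either Bptf-cKO library and 17 lower without control replicate 2.

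Without 1 library, a genotype has a single library, assumed to vary like the others, and replicate numbers are unequal between genotypes, so the replicate difference enters the direction. Over these fits the log2 fold change ran from -4.92 to 1.41 for *Hspa1a*, -3.02 to 1.29 for *Hspa1b*, -0.24 to 0.45 for *Hspa8*, -0.43 to 0.19 for *Hsp90aa1*, -0.11 to 0.16 for *Hsp90ab1*, -0.17 to 0.66 for *Hsph1*, -0.090 to 0.35 for *Hspd1* and -0.21 to 0.29 for *Hspe1*, and that of *Dnajb1* from -0.75 to -0.18. *Hsf1* went to 0.00051 with recentring. The count of 8 genes higher in both replicate 2 libraries was also 8 with recentring and with TMM scaling, and 7 of 9 with the HSP70 pair summed; these 3 were chosen after seeing the data. The cause of these changes was not tested.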
